A study of Arabidopsis thaliana with 39 samples.

Results

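The ABI5/ABF genes of Arabidopsis thaliana encode 8 transcription factors of the group A bZIP family, which act at the end of the abscisic acid (ABA) signaling pathway. They were taken by name, not by their values, and are 8 of the 27444 nuclear protein-coding genes counted: ABI5 (AT2G36270), ABF1 (AT1G49720), ABF2 (AT1G45249), ABF3 (AT4G34000), ABF4 (AT3G19290), EEL (AT2G41070), AREB3 (AT3G56850) and bZIP67 (AT3G44460). Their transcripts were followed in single seeds entering secondary dormancy (SD), a dormant state that non-dormant seeds acquire under unfavorable conditions, and in pools of dry seeds. The time course used Col-0 seeds that had been stored dry for at least 6 months: seeds imbibed for 1 h at 22°C, seeds after 1, 3, 5 and 7 days of SD induction on wet paper at 30°C in the dark, and seeds given 24 h of recovery in the light at 22°C after the 7 days (7 days + 24 h). Recovery thus changed both light and temperature. A pool-split control consisted of extracts of 7-day seeds that were mixed and divided again. Each of these 7 groups had 3 libraries of 32 seeds. In the dog1 experiment Col-0 seeds were compared with seeds of dog1-4, a mutant allele of the dormancy gene DELAY OF GERMINATION 1 (DOG1), after 3 days and after 7 days + 24 h, again with 3 libraries of 32 seeds per group. Untreated dry seeds of both genotypes were sequenced as 3 pools each. The time-course libraries were seed batches drawn from 1 common pool, so p-values there measure the spread between batches. The seed pools behind the dog1 libraries were not named, and a pool shared within a genotype cannot be told apart from the genotype. The mutant is a single allele.

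Without ABA, PP2C phosphatases hold SnRK2 kinases inactive. With ABA, the receptors inhibit the phosphatases, the SnRK2 kinases phosphorylate the ABI5/ABF factors, and the factors bind ABA-responsive elements (ABREs) with the core ACGTG in the promoters of late embryogenesis, dehydrin and stress genes. ABI5 blocks germination and early seedling growth when ABA is present, and loss of ABI5 allows seeds to germinate on ABA. EEL binds the same elements as ABI5 and opposes it at the late embryogenesis gene EM1. ABF1, ABF2, ABF3 and ABF4 are known mainly from ABA and drought responses of vegetative tissue, AREB3 is a close relative found in embryos, and bZIP67 acts in seed maturation and activates DOG1.

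Because these factors bind ABREs, the 250 bases before each annotated start (TAIR10.1, sequence from RefSeq) were searched for the core, ACGTG or its reverse complement CACGT, with overlapping matches joined to a single site. ABI5 had 4 sites, ABF1 had 2, ABF3, ABF4 and bZIP67 had 1 each, and ABF2, EEL and AREB3 had none. Among 27443 promoters of the same length, 22.9% had at least 1 site, 4.98% had at least 2 and 66 promoters (0.241%) had at least 4. In ABI5, 3 of the sites were full G-boxes (CACGTG, found in 6.49% of promoters), and the sites lay 88 to 233 bases before the start. The windows of EEL and AREB3 overlap the neighboring genes AT2G41060 and AT3G56860. The windows of ABI5, ABF1 and ABF4, the 3 members with both a called change in single seeds and at least 1 site, and of ABF2 as a window without a site, are printed 5′ to 3′ on the gene's strand with the sites in capitals.
ABI5, chr2:15207637-15207886, minus strand: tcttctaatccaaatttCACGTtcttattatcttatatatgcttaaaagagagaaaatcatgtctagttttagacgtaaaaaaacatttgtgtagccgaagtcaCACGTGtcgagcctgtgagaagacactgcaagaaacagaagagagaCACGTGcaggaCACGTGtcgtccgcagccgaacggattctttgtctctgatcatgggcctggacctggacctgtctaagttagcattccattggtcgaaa
ABF1, chr1:18399753-18400002, plus strand: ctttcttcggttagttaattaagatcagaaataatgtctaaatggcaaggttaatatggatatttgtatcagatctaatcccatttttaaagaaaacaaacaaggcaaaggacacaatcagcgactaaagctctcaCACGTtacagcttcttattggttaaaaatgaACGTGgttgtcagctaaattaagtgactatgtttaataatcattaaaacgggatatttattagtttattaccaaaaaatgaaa
ABF4, chr3:6686792-6687041, plus strand: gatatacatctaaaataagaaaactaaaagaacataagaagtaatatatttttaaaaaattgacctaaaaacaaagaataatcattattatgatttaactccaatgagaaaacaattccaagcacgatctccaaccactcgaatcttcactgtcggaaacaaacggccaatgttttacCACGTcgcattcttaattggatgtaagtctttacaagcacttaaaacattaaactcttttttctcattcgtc
ABF2, chr1:17167925-17168174, minus strand: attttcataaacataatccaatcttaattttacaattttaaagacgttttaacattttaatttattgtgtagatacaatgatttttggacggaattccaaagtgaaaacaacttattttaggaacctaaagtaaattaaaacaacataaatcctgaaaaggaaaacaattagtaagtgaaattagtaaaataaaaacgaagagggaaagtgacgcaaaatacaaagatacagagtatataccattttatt
A match describes letters in the sequence and is no measured binding site.

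Values are unique molecular identifiers (UMIs) counted at the 3′ ends of polyadenylated RNA. They were added up over the seeds kept in each library and are given as CPM, counts relative to the library total, scaled within each experiment. CPM of different genes are not compared here, and the 3 experiments were scaled separately. The libraries held 731423 to 3132901 genic UMIs in the time course, 1737013 to 4993365 in the dog1 libraries and 836376 to 3378782 in dry pools. UMIs outside nuclear protein-coding genes, called unspecific, moved with the time points: they made up 41.9 to 62.7% at 1 h, 17.7 to 24.3% at 1 day, 62.0 to 73.1% at 3 days, 65.5 to 75.5% at 5 days, 25.7 to 31.5% at 7 days, 20.8 to 24.3% at 7 days + 24 h and 50.5 to 57.6% in the pool-split control. They stayed at 10.5 to 13.9% in the dog1 libraries and 3.24 to 5.26% in dry pools. DOG1 itself was lower in every dog1-4 library or pool, by log2 fold changes of -3.43 at 3 days, -3.32 at 7 days + 24 h and -3.71 in dry seeds. All 5 seed markers (CRA1, OLEO1, OLEO2, SESA1 and HSFA9) were detected in every library. The third dog1-4 library at 3 days stood apart: its 4 seedling leaf markers (RBCS1A, RBCS3B, LHCB1.3, LHCB2.1) summed to 5621 CPM against 44.0 and 67.1 CPM in the other 2, and 8 of its 32 seeds exceeded 1000 CPM. Results that use it are also given without it where it changes a call.

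ABF2, ABF3 and bZIP67 were barely detected in single seeds. ABF2 had 1 to 22 counts per library in the time course and 6 to 20 in the dog1 experiment. ABF3 had 0 to 18 counts in both experiments. bZIP67 had 1 to 18 counts in the time course and 0 to 5 in the dog1 experiment. None of the 3 reached the mean of 10 counts per library required for testing in single seeds, so 5 of the 8 genes were tested there. The ABF3 and bZIP67 levels followed the unspecific share, with 6.76 to 15.9 CPM of ABF3 and 6.87 to 13.8 CPM of bZIP67 at 3 and 5 days, where that share was highest, and no more than 2.00 CPM of ABF3 and 2.35 CPM of bZIP67 at 1 day, 7 days and 7 days + 24 h. Whether the unspecific UMIs contribute to these counts was not tested. Of the tested genes, EEL (chromosome 2, 17129753 to 17132386, plus strand) shares 817 bases with the end of AT2G41060 on the same strand, so reads there may belong to either gene. AT2G41060 rose with EEL from 1 h to 7 days (log2 fold change of 1.86, adjusted p = 6.76e-06), and had a log2 fold change of -0.43 (adjusted p = 0.0781) from 7 days to 7 days + 24 h and of -0.16 (adjusted p = 0.557) between dog1-4 and Col-0 after 7 days + 24 h. Its part in the EEL counts was not tested.

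**Figure D1:**
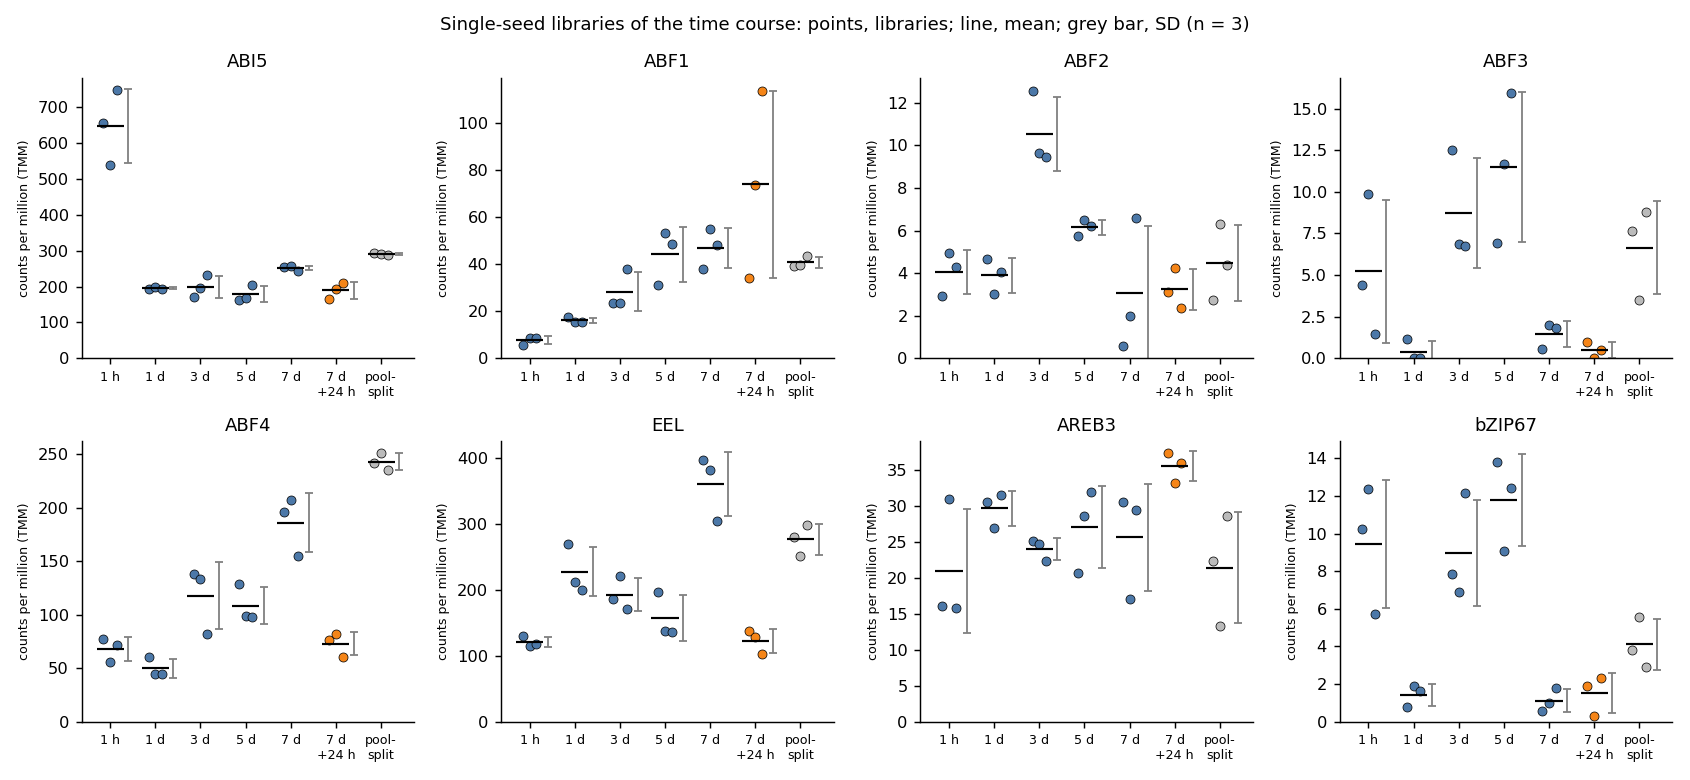
Level of each ABI5/ABF gene in CPM (y axis, linear, a separate scale per gene) at the 6 time points and in the pool-split control (x axis). Points are libraries of up to 32 seeds, each horizontal line is the mean of 3 libraries and grey bars are the SD, cut off at 0. ABI5 was highest at 1 h (540.0 to 748 CPM), ABF1 rose from 5.85 to 8.65 CPM at 1 h to 34.3 to 114 CPM at 7 days + 24 h, EEL and ABF4 peaked at 7 days, and ABF2, ABF3 and bZIP67 stayed below 16 CPM.

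During the first day of SD induction ABI5 fell, while EEL was higher at 1 day than at 1 h. ABI5 had 656, 540.0 and 748 CPM after 1 h of imbibition and 195, 199 and 194 CPM after 1 day. The groups did not overlap, and the level fell 3.30-fold (log2 fold change of -1.72, SE = 0.13, adjusted p = 3.03e-10, edgeR's quasi-likelihood test over 15430 genes). ABI5 was the only 1 of the 5 tested genes called at adjusted p below 0.05 and a log2 fold change beyond 1, a rule that 38.1% of all tested genes passed in either direction and 29.0% downwards. EEL had 130.1, 115 and 118 CPM at 1 h and 269, 212 and 199 CPM at 1 day (log2 fold change of 0.91, SE = 0.17, adjusted p = 8.56e-05), which passed the p-value but not the fold. It was called with DESeq2 (1.20), library totals (1.27), TMM scaling over all genes (1.14) and every seed thinned to 5000 UMIs (1.19). ABF1 was near its detection limit at 1 h, with 4, 7 and 6 counts (5.85, 8.65 and 8.61 CPM), and had 17.4, 15.5 and 15.3 CPM at 1 day (1.05, SE = 0.51, adjusted p = 0.091). It was called with DESeq2 (1.36), a replicate block (1.08), library totals (1.40), TMM over all genes (1.28) and only the 2 groups fitted (1.11). ABF4 had 77.5, 55.6 and 71.8 CPM before and 60.4, 45.1 and 44.4 CPM after, and these ranges overlapped (-0.44, adjusted p = 0.082). AREB3 had 16.1, 30.9 and 15.8 CPM at 1 h and 30.6, 26.9 and 31.5 CPM at 1 day, which overlapped too (0.48, adjusted p = 0.162). In extracts of whole seeds, fewer cells of a type and less RNA per cell cannot be told apart.

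Between 1 and 3 days ABF4 rose, while ABI5, EEL and AREB3 showed no called change. ABF4 had 138, 133 and 81.8 CPM at 3 days, all above the 44.4 to 60.4 CPM of 1 day, a 2.29-fold increase (log2 fold change of 1.20, SE = 0.19, adjusted p = 1.47e-05). It was the only member called, beside 33.5% of all tested genes in either direction and 29.0% upwards, and the median of all genes moved by 0.35. The call was lost with DESeq2 (0.84) and with TMM scaling over all genes (0.79), which moves that median by -0.40. ABF1 had 23.5, 23.4 and 37.9 CPM at 3 days (0.89, SE = 0.36, adjusted p = 0.0455) and passed the fold only without the second 3-day library (1.04, adjusted p = 0.0373). ABI5 stayed at 171, 195 and 231 CPM (0.04, adjusted p = 0.846). EEL had 187, 220.0 and 171 CPM and AREB3 had 25.1, 24.7 and 22.3 CPM, the first overlapping its 1-day values and the second just below them (-0.24 and -0.32, neither passing the test). From 3 to 5 days no member was called, beside 0.0389% of all tested genes. The 5 log2 fold changes of that step lay between -0.29 and 0.57 with adjusted p between 0.721 and 0.962, in a comparison where 1202 of 15430 genes had an unadjusted p under 0.05.

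Between 5 and 7 days EEL rose, and ABF4 and ABI5 were higher with a smaller change, while most called genes fell. EEL had 197, 137 and 135 CPM at 5 days and 396, 381 and 305 CPM at 7 days, its highest level in the time course. That 2.3-fold increase (log2 fold change of 1.20, SE = 0.16, adjusted p = 1.51e-06) was the only call among the members, in a step where 34.0% of all tested genes were called but only 0.745% upwards. ABF4 had 129, 98.6 and 98.3 CPM at 5 days and 196, 207 and 155 CPM at 7 days (0.77, SE = 0.18, adjusted p = 0.00123). ABI5 had 164, 169 and 205 CPM at 5 days and 254, 257 and 244 CPM at 7 days (0.48, SE = 0.14, adjusted p = 0.00569). These 3 genes had no overlap between the 2 time points, and ABF4 and ABI5 passed the p-value but not the fold. ABF4 was also called with DESeq2 (1.23), and ABF4 (1.30) and ABI5 (1.01) with TMM scaling over all genes. Under that scaling a larger part of the calls over all genes was upwards. The median of all genes moved by -0.42 in this step, as the unspecific share dropped, and the part of that shift in these values was not tested. ABF1 had 31.1, 53.2 and 48.7 CPM at 5 days and 38.1, 55.1 and 48.0 CPM at 7 days (0.07), and AREB3 changed by -0.03.

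Over the whole induction, from 1 h to 7 days, 4 of the 5 tested members were called, 3 upwards and 1 downwards. The same rule called 38.8% of all tested genes, 7.92% upwards and 30.9% downwards. ABF1 rose 5.96-fold (log2 fold change of 2.58, SE = 0.46, adjusted p = 6.35e-05), EEL 2.97-fold (1.57, SE = 0.17, adjusted p = 7.25e-08) and ABF4 2.72-fold (1.44, SE = 0.20, adjusted p = 2.74e-06). ABF1 was near its detection limit at 1 h, with 4, 7 and 6 counts against 65, 55 and 160 at 7 days. The size of its fold therefore rests on few counts. ABI5 fell 2.58-fold (-1.37, SE = 0.13, adjusted p = 1.61e-08), or by 0.80 on the log2 scale, not called, when libraries were scaled by their totals, which moves the median of all genes by 0.57. AREB3, with 16.1, 30.9 and 15.8 CPM at 1 h and 30.5, 17.0 and 29.4 CPM at 7 days, did not pass (0.32, adjusted p = 0.366). The steps share time points, so their values are not independent of each other. Over all 6 time points, 4 of the 5 genes passed an F-test that 81.7% of all tested genes passed, and AREB3 did not (adjusted p = 0.124). AREB3 passed with DESeq2 (adjusted p = 0.000177), library totals (0.000242) and TMM over all genes (0.00368), and without the second 1 h library (0.0363), which also held 5 seeds above 1000 CPM of leaf markers.

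Recovery brought EEL and ABF4 down within 24 h. EEL fell from 396, 381 and 305 CPM at 7 days to 137, 128 and 103 CPM at 7 days + 24 h, a 2.93-fold decrease (log2 fold change of -1.55, SE = 0.16, adjusted p = 5.4e-08). ABF4 fell from 196, 207 and 155 CPM to 76.2, 81.6 and 60.8 CPM, a 2.53-fold decrease (-1.34, SE = 0.17, adjusted p = 1.81e-06). These 2 of 5 members were called, beside 17.5% of all tested genes in either direction and 6.47% downwards. ABI5 had 165, 194 and 210.3 CPM after recovery, all below its 7-day values (-0.41, SE = 0.13, adjusted p = 0.0187). ABF1 showed no fall. Its 3 recovery libraries spread over 34.3, 73.7 and 114 CPM around the 7-day values (0.66, SE = 0.27, adjusted p = 0.0636), the widest spread of any tested member at any time point relative to its mean. AREB3 had 37.4, 33.2 and 36.0 CPM, its highest mean (0.42, adjusted p = 0.157). Of the 5 seed markers 3 fell in the same step, and their sum went from 36901 to 43734 CPM down to 12651 to 14563 CPM, while 1 of the 2 tested leaf markers rose. Their part in the member changes was not tested.

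Compared with 3 days, seeds after 7 days + 24 h had more ABF1 (log2 fold change of 1.30, SE = 0.32, adjusted p = 0.0012), the only member called beside 35.0% of all tested genes (6.92% upwards). The libraries overlapped (23.4 to 37.9 CPM against 34.3 to 114 CPM), and without the third recovery library the value was 0.81 (adjusted p = 0.0195) and no longer called. ABF4 (-0.65, adjusted p = 0.0049) and EEL (-0.64, adjusted p = 0.00176) were lower without reaching the fold, and ABI5 (-0.09) and AREB3 (0.58, adjusted p = 0.0617) did not pass.

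Ordered by level, ABI5 stood highest at 1 h (648 ± 104 CPM, SD, n = 3), then at 7 days (252 ± 6.39 CPM), and both were clear of every other time point. Its other 4 time points (179 ± 22.9 to 199 ± 30.4 CPM) overlapped and had no order. EEL was highest at 7 days (360.4 ± 48.8 CPM), followed by 1 day and 3 days, which overlapped, and was lowest at 7 days + 24 h (123 ± 17.9 CPM) and 1 h (121 ± 8.09 CPM), which also overlapped. ABF4 was highest at 7 days (186 ± 27.8 CPM), followed by 3 and 5 days, which overlapped, and lowest at 1 day (49.9 ± 9.03 CPM), which overlapped with 1 h. ABF1 means rose with every time point from 7.70 ± 1.61 to 73.9 ± 39.7 CPM, but from 3 days on the libraries of neighboring time points overlapped. Only EEL and ABF4 had their highest level at the end of induction, and over the 18 libraries of the time course the log2 levels of these 2 genes had a Pearson r of 0.59, against -0.65 for ABI5 with ABF1 and -0.56 for ABI5 with AREB3. These correlations describe libraries that share time points, depth and unspecific share.

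The pool-split control gave levels near those of intact 7-day seeds. ABI5 had 292, 291 and 288 CPM, above the 244 to 257 CPM of single seeds (log2 fold change of 0.21, adjusted p = 0.298), ABF4 had 242, 252 and 236 CPM (0.40, adjusted p = 0.104), and EEL had 279.9, 251 and 298 CPM (-0.38, adjusted p = 0.0825). ABF1 (-0.19, adjusted p = 0.724) and AREB3 (-0.32, adjusted p = 0.432) overlapped with their 7-day values. None of the 5 tested members was called, beside 16.8% of all tested genes, of which nearly all were higher in the control (5021 of 15430 genes had an unadjusted p under 0.05, and the unspecific share was also higher there).

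Of the genes with a mean of at least 10 CPM (13499 genes), those with the time course most like ABI5 over the 18 libraries were SUS3, a sucrose synthase (Pearson r of log2 CPM = 0.978), XERO1, a dehydrin (0.975), At17.1 (0.969), AT2G18340 (0.966) and AT5G58330 (0.966). Most like ABF1 were AT1G58235 (0.920), AT4G28790 (0.910), the ubiquitin-conjugating enzyme UBC8 (0.910), AT5G52450 (0.893) and EDA25 (0.893). The r values are the highest of 13499 and describe likeness alone.

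**Figure D2:**
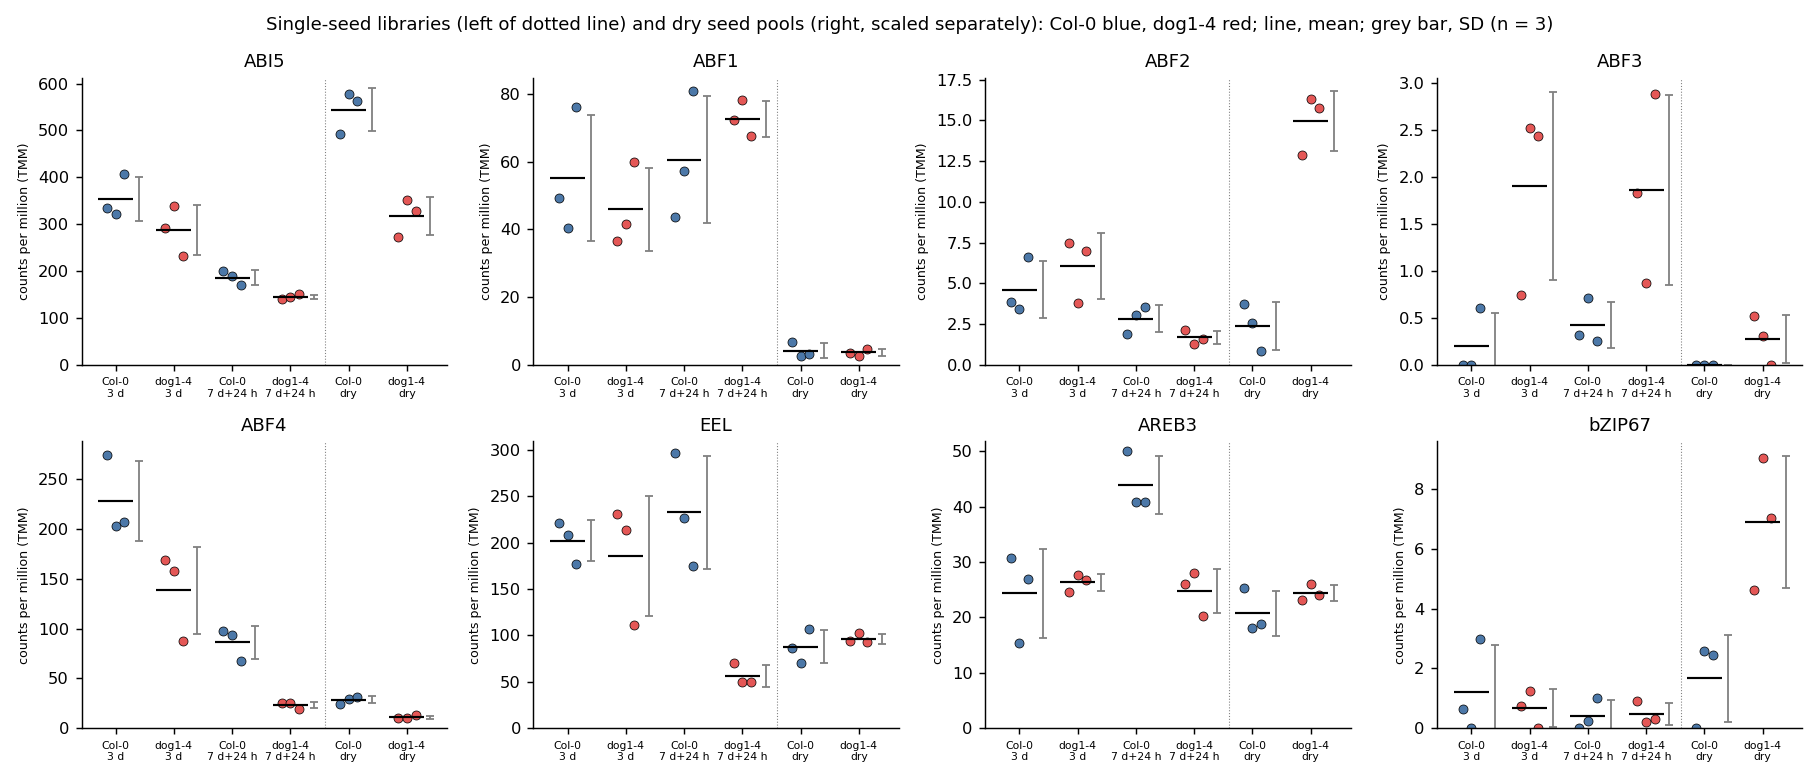
Level of each ABI5/ABF gene in CPM (y axis, linear) in Col-0 and dog1-4 seeds after 3 days and 7 days + 24 h, and, right of the dotted line, in dry pools, which were scaled separately. Points are libraries or pools, and bars are the mean with SD of 3. After 7 days + 24 h dog1-4 lay below Col-0 without overlap for EEL (49.8 to 70.5 against 175 to 297 CPM) and ABF4 (19.4 to 25.2 against 67.3 to 97.6 CPM), and in dry pools ABF2 was higher in dog1-4 (12.9 to 16.3 against 0.815 to 3.73 CPM).

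Loss of DOG1 left the members without a called change at 3 days of SD induction. ABI5 had 334, 322 and 408 CPM in Col-0 and 291, 339 and 232 CPM in dog1-4 (log2 fold change of -0.30), and EEL had 221, 208 and 178 CPM against 231, 214 and 111 CPM (-0.13). ABF4 came closest, with 275, 203 and 207 CPM in Col-0 and 169, 158 and 88.1 CPM in dog1-4, which did not overlap (-0.73, SE = 0.24, adjusted p = 0.126). The lowest ABI5, EEL and ABF4 values of the mutant all came from the third library, the library with leaf markers. ABF1 (-0.24) and AREB3 (0.13) overlapped between genotypes. None of the 5 was called, beside 0.866% of 14432 tested genes, and 2944 genes had an unadjusted p under 0.05.

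After 7 days + 24 h, EEL and ABF4 were several-fold lower in dog1-4 than in Col-0. EEL had 297, 226 and 175 CPM in Col-0 and 70.5, 50.1 and 49.8 CPM in dog1-4, a 4.11-fold difference (log2 fold change of -2.04, SE = 0.27, adjusted p = 0.000813). ABF4 had 97.6, 93.6 and 67.3 CPM in Col-0 and 25.2, 24.9 and 19.4 CPM in dog1-4, a 3.73-fold difference (-1.90, SE = 0.25, adjusted p = 0.000773). These 2 of 5 members were called, beside 10.1% of all tested genes in either direction and 5.47% lower in dog1-4. Scaling by the 679 genes least correlated with unspecific UMIs moves the median of all genes by 0.96, and left EEL at -1.05, called, and ABF4 at -0.92, not called. AREB3 was also lower without overlap, with 50.1, 40.9 and 40.9 CPM against 26.1, 28.0 and 20.3 CPM (-0.83, SE = 0.20, adjusted p = 0.0108), but did not reach the fold. ABI5 had 199.6, 189 and 169 CPM in Col-0 and 141, 144 and 150.1 CPM in dog1-4, which did not overlap, yet the difference did not pass (-0.36, SE = 0.15, adjusted p = 0.0931). With the 679-gene scaling ABI5 (0.62) and AREB3 (0.14) turned in direction. ABF1 was not lower in the mutant. Its 43.7, 57.4 and 80.8 CPM in Col-0 overlapped the 72.3, 78.2 and 67.5 CPM of dog1-4 (0.26, adjusted p = 0.472). All 5 seed markers were lower in dog1-4 at this time point (sum of 6348 to 7877 CPM against 18454.5 to 27706 CPM, HSFA9 at -2.32), none of the 4 leaf markers was called (sum of 229 to 397 CPM against 107 to 121 CPM), and the part of these shifts in the EEL and ABF4 values was not tested.

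Within the dog1 experiment, the change from 3 days to 7 days + 24 h differed between genotypes for EEL. In Col-0, EEL had 221, 208 and 178 CPM before and 297, 226 and 175 CPM after (log2 fold change of 0.20, adjusted p = 0.558), while in dog1-4 it fell from 231, 214 and 111 CPM to 70.5, 50.1 and 49.8 CPM (-1.70, SE = 0.27, adjusted p = 0.000231). The difference between these changes was -1.91 (SE = 0.38, adjusted p = 0.0226 for the interaction), the only member call beside 2.83% of all tested genes (2.19% downwards). The interaction lost its call on leaving out any of 6 of the 12 libraries, each in turn: the second or the third Col-0 library at 3 days (-1.93 with adjusted p = 0.0658, and -1.82 with 0.0579), the first or second Col-0 library after recovery (-1.69 with 0.0649, and -1.93 with 0.063), and the second or the third dog1-4 library after recovery (-1.82 with 0.0707, and -1.82 with 0.0778). Its value stayed between -2.23 and -1.69 over all 12. ABF4 fell in both genotypes, by -1.40 (SE = 0.24, adjusted p = 7e-04) in Col-0 and -2.57 (SE = 0.26, adjusted p = 8.08e-06) in dog1-4, and the interaction of -1.17 (SE = 0.34, adjusted p = 0.0775) was not called. It was called with DESeq2 (-1.18, adjusted p = 0.0232), the replicate block (-1.12, adjusted p = 0.0124) and library totals (-1.30, adjusted p = 0.0151), and without the third dog1-4 library at 3 days (-1.47, adjusted p = 0.00197). These changes span further induction as well as recovery, since the dog1 experiment is compared at these 2 time points alone. Col-0 seeds of the time course did not repeat the flat EEL level. There EEL was lower after recovery without overlap (-0.64, adjusted p = 0.00176), though not called. The difference between the experiments was not tested.

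Within each genotype the time comparison called 1 member in Col-0 (ABF4, beside 22.2% of all tested genes, 8.90% downwards) and 2 in dog1-4 (ABF4 and EEL, beside 33.9%, 16.4% downwards). ABI5 was lower after recovery in both, going from 322 to 408 CPM down to 169 to 199.6 CPM in Col-0 (-0.93, SE = 0.15, adjusted p = 0.000547) and from 232 to 339 CPM down to 141 to 150.1 CPM in dog1-4 (-0.98, SE = 0.15, adjusted p = 0.000173), and the difference of the changes was -0.05 (SE = 0.21, adjusted p = 0.921). These values lay just under the fold: without the third dog1-4 library at 3 days the change of ABI5 was -1.18 (adjusted p = 4.87e-06), and without the third dog1-4 library after recovery -1.01 (adjusted p = 0.00106), both called. AREB3 was higher after recovery in Col-0 (0.86, SE = 0.22, adjusted p = 0.00721), and by 1.05 (adjusted p = 0.0061, called) without the first Col-0 library at 3 days, and overlapped between the time points in dog1-4 (-0.10). The interaction for AREB3 was -0.95 (SE = 0.30, adjusted p = 0.0988). ABF1 had 0.14 in Col-0 and 0.64 in dog1-4 (adjusted p = 0.057), with an interaction of 0.50 (adjusted p = 0.468). Col-0 seeds of the time course had other values over the same span. They were -0.09 for ABI5, -0.65 for ABF4, 0.58 for AREB3 and 1.30 for ABF1, of which ABF1 was called. Directions over time in this experiment depend on the scaling: with the 679-gene scaling, which moves the median of all genes by 1.56 in Col-0 and 2.23 in dog1-4, ABF4 was at 0.14 in Col-0 and -0.28 in dog1-4, and EEL at 0.59 and ABI5 at 1.29 in dog1-4, all below the median of all genes.

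**Figure D3:**
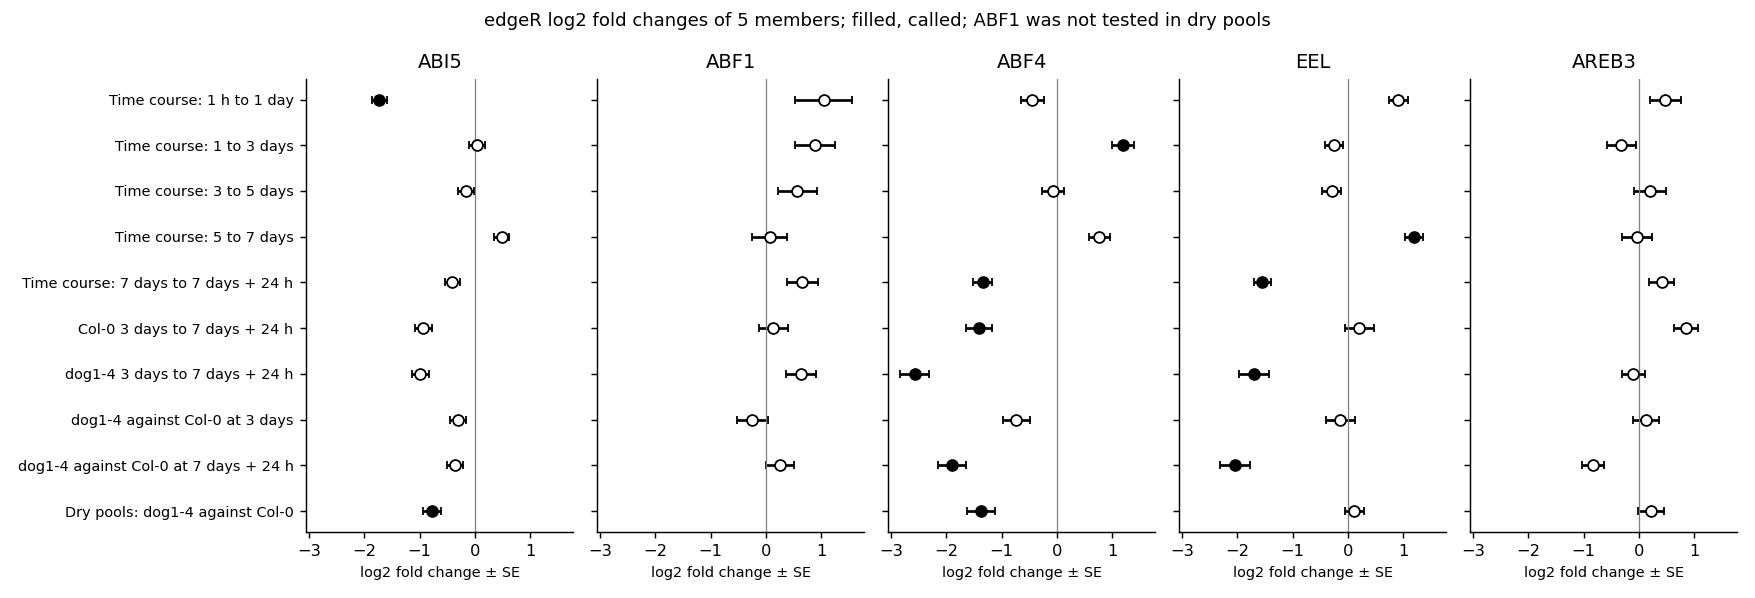
Log2 fold change with SE (x axis) of ABI5, ABF1, ABF4, EEL and AREB3 in 10 comparisons (y axis) of the time course, the dog1 experiment and the dry pools; filled points passed the call rule of their comparison. ABF1 was not tested in dry pools. EEL and ABF4 lay together in the recovery and genotype comparisons (-1.55 and -1.34, -2.04 and -1.90) and apart in dry pools (0.12 and -1.37).

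In dry pools ABI5 and ABF4 were lower in dog1-4, by a rule without a minimum fold that 9.61% of 9811 tested genes passed, 4.66% upwards and 4.95% downwards. ABI5 had 493, 578 and 562 CPM in Col-0 and 272, 352 and 329 CPM in dog1-4, a 1.71-fold difference (log2 fold change of -0.77, SE = 0.16, adjusted p = 0.00235). ABF4 had 24.6, 29.6 and 31.8 CPM against 9.80, 10.3 and 12.8 CPM, a 2.59-fold difference (-1.37, SE = 0.25, adjusted p = 0.000613). ABF2, which no single-seed comparison could test, had 5, 2 and 1 counts in the Col-0 pools (3.73, 2.57 and 0.815 CPM) and 25, 54 and 38 counts in the dog1-4 pools (12.9, 16.3 and 15.7 CPM). All dog1-4 pools were above all Col-0 pools. bZIP67 had 0, 2 and 3 counts in Col-0 and 9, 30 and 17 counts in dog1-4. ABF2 and bZIP67 reached the mean of 10 counts only through the dog1-4 pools, where they are high, so their values are a description and no test is given. EEL (86.6, 70.8 and 107 CPM against 93.8, 103 and 92.8 CPM; 0.12, adjusted p = 0.782) and AREB3 (0.22, adjusted p = 0.676) did not pass. ABF1 had 2 to 11 counts and ABF3 at most 1 count in any pool, with 0 in all Col-0 pools, which allows up to 3 counts a pool. Of the 5 seed markers CRA1 was higher (0.82, adjusted p = 0.0109) and HSFA9 lower (-0.67, adjusted p = 0.00584), and the only tested leaf marker, RBCS1A, was higher (1.86; leaf marker sum of 60.7 to 101 CPM against 18 to 31.0 CPM) and their part was not tested.

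ABF4 was thus the only member lower in dog1-4 with a call both in dry seeds and after recovery, at -1.37 and -1.90, and it stood at -0.73 without a call at 3 days. EEL was called after recovery but had 0.12 in dry pools, and ABI5 was called in dry pools but not in single seeds. Dry pools and single seeds were prepared differently and called by different rules, and the differences between them were not tested.

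How far the members varied from seed to seed was compared with the pool-split control, in which seeds were mixed, and between genotypes. The EEL and ABF4 libraries of single 7-day seeds lay above those of the control without overlap, and those of ABI5 overlapped. The spread among the 32 seeds of a library was measured as a dispersion, the squared deviation from the count expected from seed depth over that expectation, where 1 is counting noise. At 7 days ABI5 had a dispersion of 1.17 ± 0.21 (SD, n = 3 libraries) in single seeds and 1.26 ± 0.21 in the pool-split control (exact permutation test, two-sided, p = 0.7). EEL had 1.61, 1.32 and 1.89 in single seeds against 0.793, 1.22 and 1.18 in the control, and ABF4 1.24, 1.19 and 1.77 against 1.11, 0.791 and 1.09. These 2 of 5 members did not overlap (exact permutation p = 0.1 for each, the smallest that 3 against 3 libraries allow), beside 16.9% of 6946 genes, 15.1% with more spread at 7 days. After every seed was thinned to 5000 UMIs both overlapped, at a depth where few counts per seed are left. Before thinning EEL had a mean of 22.2 UMIs per seed at 7 days and 13.3 in the control, and ABF4 had 11.3 and 11.7. A dispersion grows with the counts behind it, and the part of the counts in the EEL values was not tested.

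After 7 days + 24 h the dispersion of ABI5 was 4.80 to 9.83 in dog1-4 and 1.58 to 3.32 in Col-0, and that of ABF1 4.13 to 6.99 against 1.50 to 3.06. Both did not overlap, beside 22.8% of 11156 genes (20.3% with more spread in dog1-4), a comparison added after the values were seen, with an exact two-sided permutation p of 0.1 for each. EEL was dispersed in both genotypes (6.78 to 11.4 in dog1-4 and 3.84 to 8.50 in Col-0), and ABF4 likewise (means of 3.66 and 3.22), while AREB3 stayed near counting noise (1.24 and 1.27). Thinned to 5000 UMIs a seed, all 5 overlapped between genotypes. At 3 days the 5 members overlapped as well (beside 10.8% of 7459 genes without overlap). A dispersion grows with the counts behind it, so the deeper dog1 libraries are not set against the time course.

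**Figure D4:**
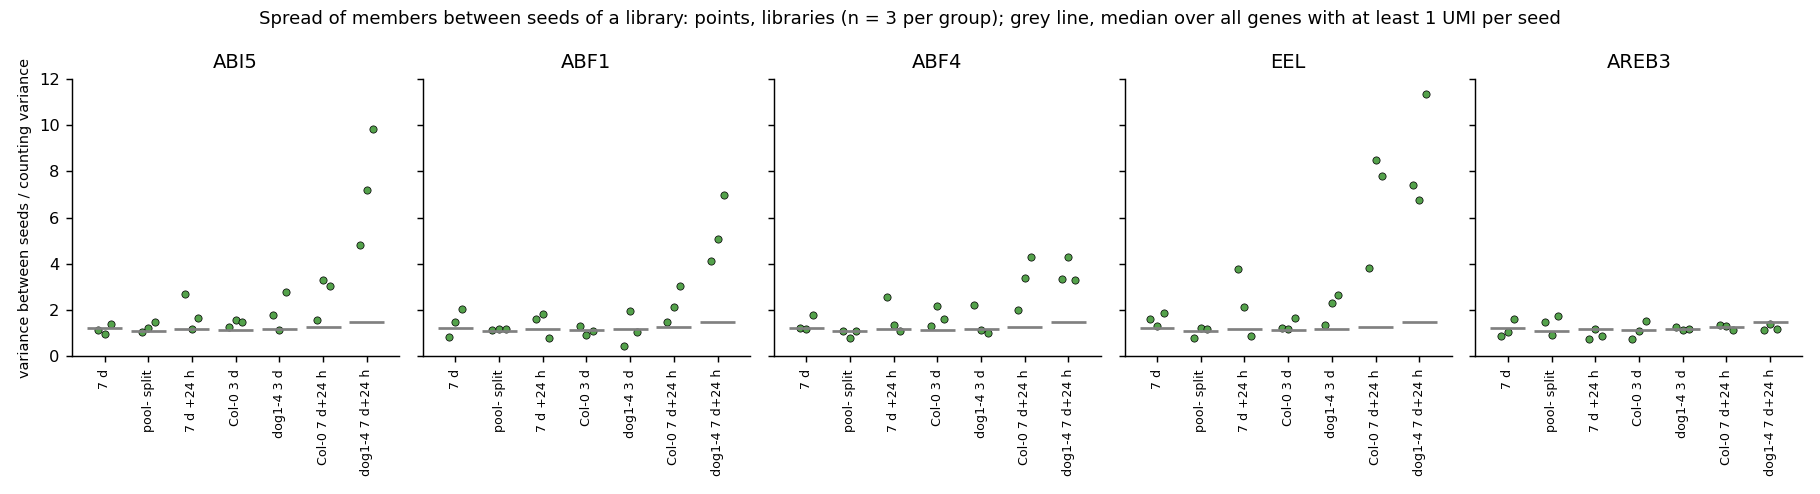
Dispersion of member counts among the seeds of a library (y axis, linear; 1 is counting noise) for ABI5, ABF1, ABF4, EEL and AREB3 in 7 groups (x axis). Points are libraries, and the grey line is the median over all genes with at least 1 UMI per seed. At 7 days + 24 h in the dog1 experiment EEL had 3.84 to 8.50 in Col-0 and 6.78 to 11.4 in dog1-4, and ABI5 had 1.58 to 3.32 and 4.80 to 9.83. Time-course libraries at that time point had 0.885 to 3.79 for EEL and 1.17 to 2.69 for ABI5. Depth differs between the groups, and a dispersion grows with it, so the experiments are not to be compared.

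In the recovering dog1-4 seeds the EEL level per seed ranged from 0 to 325 CPM of the seed's own genic UMIs, with a median of 75.7 and 10% and 90% quantiles of 6.09 and 188 (n = 96 seeds, 5 at 0). Col-0 seeds of the same time point had a median of 299 CPM and quantiles of 84.9 and 447 (n = 96, 1 at 0). ABF4 was at 0 in 15 dog1-4 seeds and 2 Col-0 seeds, with medians of 29.6 and 107 CPM. ABI5 was above 0 in every seed, with medians of 216 CPM in dog1-4 and 227 CPM in Col-0, but its 10% quantile was 68.1 CPM in dog1-4 and 129 CPM in Col-0. The ABI5 medians of the genotypes were close and the low ends apart, while EEL was lower in dog1-4 at all 3 of these points of the distribution. These seed values are not scaled like the library CPM and are not set against them.

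In the dog1 experiment, recovering seeds with little ABI5, EEL and ABF4 tended to be rich in ribosomal protein transcripts. The share of genic UMIs on 306 cytosolic ribosomal protein genes had a median of 8.17% in recovering dog1-4 seeds (10% to 90% quantiles of 6.01 to 17.7%) and 5.73% in Col-0 seeds (4.79 to 12.7%). Within dog1-4 libraries, Spearman's rho of the member's depth-adjusted level with this share was -0.84 for ABI5, -0.83 for EEL, -0.77 for ABF4, -0.61 for ABF1 and -0.35 for AREB3 (n = 96 seeds). Over 12385 genes the middle 90% of rho lay between -0.68 and 0.69, so ABI5, EEL and ABF4 were below that range. In Col-0 the values were -0.67 for ABF4, -0.66 for EEL, -0.53 for ABI5, -0.36 for ABF1 and -0.30 for AREB3 (n = 96), with all genes between -0.49 and 0.61. In the recovering seeds of the time course ABF4 had -0.49, EEL -0.40 and ABI5 -0.34, below the range of all genes (-0.29 to 0.41), while AREB3 (-0.15) and ABF1 (-0.06) lay within it (n = 95). There rho was positive in 1 of the 3 libraries for ABI5 and for ABF1. In the recovering seeds of the dog1 experiment all 5 members had a negative rho in each of the 3 libraries of both genotypes. At 3 days Col-0 seeds had 0.18 for ABI5, 0.05 for ABF1, -0.02 for ABF4, -0.05 for EEL and 0.04 for AREB3. In dog1-4 at 3 days these were -0.38, -0.05, -0.19, -0.29 and 0.07. In the pool-split control they were 0.20, -0.16, 0.23, 0.21 and -0.21. The member level and the ribosomal share are both shares of the same seed's UMIs. In recovering seeds of the dog1 experiment the ribosomal share itself rose with depth (rho of 0.39 in dog1-4 and 0.31 in Col-0).

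**Figure D5:**
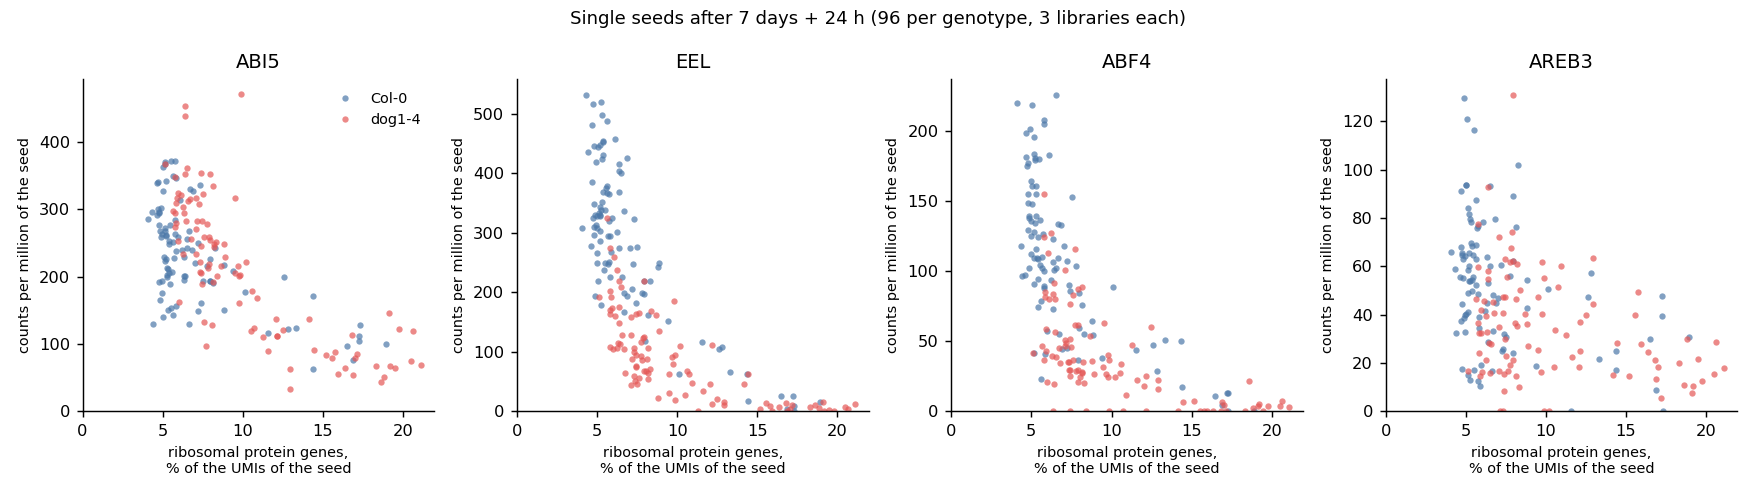
Level of ABI5, EEL, ABF4 and AREB3 in each seed after 7 days + 24 h (y axis, CPM of the seed's genic UMIs) against the share of UMIs on ribosomal protein genes (x axis, percent). Each point is 1 of 96 Col-0 (blue) or 96 dog1-4 (red) seeds. ABI5, EEL and ABF4 decline along the axis in dog1-4 (rho of -0.84, -0.83 and -0.77), and AREB3 does so weakly (-0.35).

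The members also varied together from seed to seed after recovery in the dog1 experiment. The highest rho between members was that of ABI5 with EEL in dog1-4, at 0.75 (0.65 to 0.83 in the 3 libraries, n = 96 seeds), and the 10 pairs of tested members ranged from 0.27 to 0.75 in dog1-4 and 0.18 to 0.51 in Col-0. In the recovering seeds of the time course they ranged from -0.03 to 0.32 (n = 95), with 0.13 for ABI5 and EEL. In the pool-split control, where seeds were mixed, the pairs ranged from -0.08 to 0.08. At 7 days ABI5 and EEL had a rho of -0.23. The rho over pairs of all genes was not computed, so whether the members vary together more than other genes was not tested.

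Transcripts of genes that the ABA pathway switches on were followed beside the members. Of 20 such genes 19 were tested in the time course. From 1 h to 1 day 11 fell and 2 rose (median log2 fold change of -1.48, all genes -0.33), beside 38.1% of all tested genes called and 29.0% downwards, led by the PP2C phosphatase ABI2 (-2.97), the caleosin RD20 (-2.90) and RD29A (-2.67). From 1 to 3 days, when ABF4 rose, 8 of 19 rose and 1 fell (median of 0.325, all genes 0.352), beside 33.5% of all tested genes called and 29.0% upwards. None was called from 3 to 5 days (0.0389% of all genes). From 5 to 7 days, when EEL rose, none rose and 6 of 19 fell, close to the 33.3% of all tested genes that fell (median of -0.20, all genes -0.42). In recovery 5 fell, led by the late embryogenesis genes EM6 (-2.10) and EM1 (-1.51) and the dehydrin RAB18 (-1.40), and ABI1, another PP2C phosphatase, rose (1.90), with a median of -0.44 (all genes 0.07), beside 17.5% of all genes called and 6.47% downwards. In dog1-4 against Col-0 after recovery 6 of 16 were lower, led by EM6 (-2.39), RAB18 (-1.43) and LEA4-5 (-1.14), and ABR was higher (1.69), beside 10.1% of all genes called and 5.47% downwards, while at 3 days none was called (0.866% of all genes). In dry dog1-4 pools 9 of these genes were lower and 2 higher (median of -0.74, all genes 0.01), of 16 tested and beside 9.61% of all genes called and 4.95% downwards, with HAI1 (-2.60), EM6 (-1.35) and LEA4-5 (-1.18) leading the fall.

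Of the genes whose proteins inhibit the factors, 4 AFP genes were lower in dry dog1-4 seeds. The AFP proteins bind ABI5 and oppose its action. Of the 7 inhibitor genes tested in dry pools, these 4 alone passed, beside 4.95% of all genes called lower: AFP3 (-3.75, adjusted p = 4.73e-08), AFP1 (-2.47, adjusted p = 2.45e-07), AFP4 (-1.74) and AFP2 (-1.35). In the time course AFP1 (-2.58), AFP3 (-2.32) and AFP4 (-1.30) fell from 1 h to 1 day, 3 of 8 tested inhibitor genes beside 29.0% of all genes called lower. After recovery 2 of 9 differed in dog1-4, AFP4 higher (1.15) and AFP3 lower (-1.03), beside 10.1% of all tested genes called. Among 4 kinases that phosphorylate the factors, BIN2 rose 3.03-fold and SNRK2.6 fell (-3.03 on the log2 scale) from 1 h to 1 day. These 2 of 4 stood beside 38.1% of all tested genes called. None of the 4 was called between genotypes in single seeds, beside 0.866% of all genes at 3 days and 10.1% after recovery. In dry pools SNRK2.3, 1 of 3 tested, was higher in dog1-4 (0.87, adjusted p = 0.000734), beside 4.66% of all genes called higher. Of 9 genes whose products act on the members' promoters or protein partners, 6 were tested in single seeds. HY5, a bZIP factor of light signaling, fell from 1 h to 1 day (-3.64) and rose in recovery (4.58), as did ABI4 in recovery (2.11). Of the 6, 3 were called from 1 h to 1 day and 2 in recovery, beside 38.1% and 17.5% of all tested genes. In dog1-4 after recovery FUS3, a seed maturation factor, was lower (-2.20) and WRKY18 higher (1.58), 2 of 6 beside 10.1% of all tested genes called.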

How the data were processed

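Single seeds were sequenced with barcoded oligo(dT) primers that carry UMIs, so that reads come from the 3′ ends of polyadenylated RNA. The authors aligned reads to TAIR10 by STAR 2.7.8a, retained uniquely mapped reads and used BRB-seqTools with Araport11 genes for stranded UMI counting in each seed. For dry pools the authors removed duplicates with UMI-tools 1.1.0 and counted with HTSeq 0.11.3, with a strand setting not given in the sources used here. All deposited values are counts without normalization.

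Groups came from the sample labels. Seeds were kept at 5000 or more UMIs on nuclear protein-coding genes, 665 of 672 in the time course and 382 of 384 in the dog1 experiment, and their counts were summed per library, the replicate (n = 3 per group). The time-course tables listed 37184 genes, of which 36899 matched the annotation used here, TAIR10.1. Genes with a mean of at least 10 counts per library entered edgeR's quasi-likelihood test (edgeR 4.0.16, R 4.3.3), fitted once per experiment, with Benjamini-Hochberg adjustment over all tested genes. TMM factors came from all tested genes, or, in the time course, from the 8074 genes with at least 1 UMI per seed and a Pearson r of at most 0.3 with the unspecific UMIs. Calls needed an adjusted p below 0.05 together with a change of more than 1 on the log2 scale, or the adjusted p alone for dry pools and the F-test. The SE is the log2 fold change over the root of the F statistic. The test was tried on simulated data first. Seed dispersions used the library's share and the seed's depth as the expectation, and their exact permutation tests enumerated the libraries. Correlations over seeds were centred within libraries. The counts of a seed or library limit the precision of low genes, and UMIs leave counting error and seed-to-seed spread.

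The alternatives were DESeq2 1.42.0, other count filters, other scaling, a replicate block, thinned seeds and each library left out. The replicate numbers paired libraries in 1 comparison by the correlation of their deviations, Col-0 from 3 days to 7 days + 24 h (r of 0.10 to 0.25), where the block changed no call. The 8 genes and all gene lists were chosen with earlier results of these data known. All 8 genes are reported, the tested ones in every comparison, of each list at most the 3 largest called changes per direction, and the 5 genes most like ABI5 and ABF1 by Pearson r. The overlapping gene AT2G41060 was added after the gene models were read.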

Additional observations from a re-analysis of the deposited data

Results flagged for a closer look

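The change of EEL from 3 days to 7 days + 24 h, which spans further induction as well as recovery, differed between Col-0 and dog1-4 by a test of the difference itself. The log2 fold change from 3 days to 7 days + 24 h was 0.20 in Col-0 and -1.70 in dog1-4, a difference of -1.91 (SE = 0.38, adjusted p = 0.0226, edgeR's quasi-likelihood test over 14432 genes). EEL was lower after recovery in 3 of 3 dog1-4 libraries than in any dog1-4 library at 3 days, and the Col-0 libraries overlapped. In the time course Col-0 seeds had less EEL after recovery than at 3 days, without overlap (-0.64, adjusted p = 0.00176, not called). The difference remained called with DESeq2, the 2 other count filters, the replicate block, library totals, thinned seeds and the 679-gene scaling. The paper's gene filter, as applied here, kept only those 679 genes and did not test EEL. The paper reports many more genes left by its own filtering. With 6 of the 12 libraries left out in turn the difference was not called (adjusted p of 0.0579 to 0.0778).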

How the results depend on the processing

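Of 1300 comparisons of a result with an alternative, 1198 kept their direction and side of the threshold, 41 counts or values moved, 34 gained and 18 lost a call, and 9 reversed. The number of members called from 1 h to 1 day (1) was 3 with DESeq2, without a count filter, with filterByExpr, with library totals and with TMM over all genes, and 2 with the replicate block, with thinned seeds and with only the 2 groups fitted. From 1 to 3 days (1) it was 0 with DESeq2 and TMM over all genes (ABF4 at 0.84 and 0.79) and 4 without a filter or with filterByExpr. From 5 to 7 days (1) it was 2 with DESeq2 and 3 without a filter, with filterByExpr and with TMM over all genes. From 3 days to 7 days + 24 h (1) it was 4 without a filter or with filterByExpr, 2 with library totals and 0 with thinned seeds. The F-test count (4) became 7, and the pool-split count (0) became 1, without a filter and with filterByExpr. Calls gained without a filter were mainly ABF2, ABF3 and bZIP67, each with at most 22 counts per single-seed library. ABI5 from 1 h to 7 days had -0.80, not called, with library totals.

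In the dog1 experiment the paper's gene filter tested only ABF4, which gave 0 calls in place of 2 after 7 days + 24 h, 1 in the interaction, 1 for Col-0 and 2 for dog1-4. The interaction count was 2 with DESeq2, the replicate block and library totals (ABF4 at -1.18, -1.12 and -1.30), and the Col-0 time count 2 with thinned seeds. TMM from the genes least correlated with unspecific UMIs shifted the median of all genes by 0.96 after recovery, 1.56 in the Col-0 and 2.23 in the dog1-4 time comparison, and gave 3 calls for Col-0. It reversed ABI5 (0.62) and AREB3 (0.14) between genotypes after recovery, ABI5 (0.62) and ABF4 (0.14, also 0.14 with the paper's filter) in the Col-0 time comparison, and ABI5 (1.29), EEL (0.59) and AREB3 (2.13) in that of dog1-4. Between genotypes after recovery it left ABF4 at -0.92, not called. The EEL interaction stayed called (-1.14). In the time course, library totals turned ABI5 from 3 days to 7 days + 24 h to 0.43. Thinned seeds left 0 of 2 members without overlap in dispersion.

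With each library left out in turn, the member counts ranged from 1 to 2 for 1 to 3 days, 0 to 1 for 3 days to 7 days + 24 h, 4 to 5 for the F-test, 0 to 2 for the interaction, 1 to 2 for Col-0, 2 to 3 for dog1-4, 3 to 4 for dry pools (with ABF2 and bZIP67, which entered that test through the pools where they are high) and 2 to 3 for dispersion. Outside Col-0 the replicate numbers did not pair the libraries. The block otherwise changed member counts only from 1 h to 1 day and in the interaction. Depth limited ABF2, ABF3 and bZIP67 in single seeds and ABF1 at 1 h and in dry pools.

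Counts over all genes moved as well. Without a filter on low counts the calls from 1 h to 1 day went from 5879 to 11813, from 1 to 3 days from 5164 to 12726, from 5 to 7 days from 5252 to 13868, from 1 h to 7 days from 5990 to 11004 and in the pool-split control from 2590 to 6712. The paper's gene filter, as applied here, and thinned seeds test fewer genes (8074 and 2238) and gave 2175 and 949 calls from 1 h to 1 day. With each library left out, calls between genotypes ranged from 35 to 786 at 3 days (125 with all) and from 787 to 1766 after recovery (1458), and those of the interaction from 82 to 1343 (409). The 679-gene scaling gave 6948, 1732, 11010 and 12680 calls after recovery, in the interaction and for the Col-0 and dog1-4 time comparisons (1458, 409, 3210 and 4895), at least 96% of them upwards in each, against 45.9%, 22.7%, 60% and 51.6%. From 3 to 5 days (6) the calls were 13 with DESeq2, 11 without a filter, with the replicate block and with thinned seeds, 15 with the paper's filter, 4 with TMM over all genes and 0 with only the 2 groups fitted. Between genotypes at 3 days (125) they were 258 with DESeq2, 362 without a filter, 244 with the block, 243 with library totals and 10 with only the 2 groups. The interaction had 699 with the block and 728 with library totals. Calls from 5 to 7 days were 2.19% upwards, or 28.6% with TMM over all genes, and those from 1 h to 7 days 20.4%, or 33.2% and, with library totals, 49.8%.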
